A study of Mus musculus with 63 samples.

Results

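The potassium channel genes are a large family of ion channel genes, and 91 of them were measured in 4 populations of cells sorted from the mouse cortex after a burn or a sham injury. The members were the protein-coding genes whose symbol starts with Kcn, without Kcnj8, Kcnj10 and Kcnj16, and they made up 91 of the 56980 genes in each table of read counts. By name they fell into 8 subfamilies: 17 genes of the Kcna, Kcnb, Kcnc and Kcnd voltage-gated channels, 8 Kcnh, 5 Kcnq, 10 silent voltage-gated subunits (Kcnf, Kcng, Kcns and Kcnv), 8 calcium- and sodium-activated channels, 12 inward rectifiers, 14 two-pore-domain channels and 17 auxiliary subunits.

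The animals were female C57BL/6J mice that received either a full-thickness burn of the flank covering 7 to 8% of the body surface or a sham procedure, in which the skin was shaved but not burned after the same virus injection. Pain relief after surgery was given as an animal needed it and some burn mice received it, so its part and that of the burn cannot be told apart. Mice were 12 weeks old at the start, and cells were sorted 5 weeks after injury. Cells expressing eGFP from an AAV with a CaMKII promoter (CaMKII positive; 4 burn and 6 sham libraries) and cells with both eGFP and mRuby2, the latter under the mDlx enhancer (CaMKII-mDlx double-positive; 9 burn and 7 sham), came from the motor cortex. ACSA2-positive cells (9 burn and 8 sham) and CD11b-positive cells (8 burn and 7 sham) were stained with antibodies and came from cortex caudal to it, so the region, the label and the population cannot be told apart when a motor cortex sort is compared with a caudal one. Each library was 1 population of 1 mouse, and 17 mice (9 burn, 8 sham) gave the 58 libraries.

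These libraries held 13346143 to 134703744 counts. At such depths a count of 0 allows, at 3 counts, up to 0.0223 to 0.225 CPM (counts per 1000000 counts of the library), counting error only. Fixed marker lists went against the names of both motor cortex sorts. In the CaMKII positive libraries 7 astrocyte markers summed to 19093 CPM on average and 6 excitatory neuron markers to 144 CPM. In the double-positive libraries 7 microglia markers summed to 20078 CPM, and all 9 inhibitory neuron markers, Gad1 and Gad2 among them, had means under 1 CPM. The ACSA2-positive and CD11b-positive sorts held their own markers, at 39794 CPM of the astrocyte list and 24258 CPM of the microglia list. Populations are therefore called by their sort below, and in these bulk libraries a change in the number of cells of a type and a change of RNA per cell cannot be told apart. Of the libraries, 5 stood apart: the ACSA2-positive sham library of mouse 13 held 1490.8 CPM of the excitatory list, the CaMKII positive sham library of mouse 8 held 3823 CPM of 6 oligodendrocyte markers, the CaMKII positive burn library of mouse 24 held 397 CPM of the excitatory list, the double-positive burn library of mouse 10 held 633 CPM of the endothelial list, and the CaMKII positive burn library of mouse 2 was the one with 134703744 counts. Their values are given beside the genes or counts they touch.

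Potassium channels let potassium leave or enter a cell through a narrow selectivity filter, and so set the resting potential and end action potentials. Voltage-gated members open on depolarisation, calcium- and sodium-activated members open when these ions rise inside the cell, two-pore-domain members leak at rest, and inward rectifiers pass current best near and below the resting potential. In the cortex, astrocytes are known for a potassium conductance that clears extracellular potassium, and microglia for two-pore-domain and inwardly rectifying channels that hold their resting potential and bear on cytokine release.

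The filter is the part of the sequence the pore-forming members share. Codon runs for it were searched in frame, on the coding strand of the longest complete coding sequence of each gene, as 5 codons in a row for threonine, any residue, glycine, then tyrosine (TAN, where N is any base) or phenylalanine or leucine (TTN), and glycine. A run was found in 63 of the 91 members (69.2%) and in 217 of 21707 other protein-coding genes (1.00%). It was present in all 17 Kcna, Kcnb, Kcnc and Kcnd genes, all 5 Kcnq genes, all 10 silent subunits, all 14 two-pore-domain genes and 11 of 12 inward rectifiers, in 5 of 8 calcium- and sodium-activated genes, in 1 of 8 Kcnh genes, and in 0 of 17 auxiliary subunits, which do not line a pore. The two-pore-domain subunits carry a filter in each of their pore domains, and 11 members held 2 runs.

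The filter windows below are shown for the members with the highest level per kilobase of exon that carry a run, first the 5 leading ones in ACSA2-positive and then the 5 in CD11b-positive cells, because these are the sets of genes on which the population results turn. Kcnip3, Kcnn3 and Kcnn2, which rank among the ACSA2-positive leaders, are not shown, since they hold no run. Among the calcium- and sodium-activated genes the run was missing in Kcnn1, Kcnn2 and Kcnn3, the small-conductance channels. Each window has 57 bases of coding sequence, read 5′ to 3′ from GENCODE M21 transcripts (GRCm38), with the first filter run in capitals.
Kcnk1: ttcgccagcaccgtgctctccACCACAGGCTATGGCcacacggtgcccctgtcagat
Kcna2: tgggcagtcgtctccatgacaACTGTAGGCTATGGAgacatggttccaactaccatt
Kcnc4: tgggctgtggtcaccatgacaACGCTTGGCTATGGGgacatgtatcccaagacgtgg
Kcnk2: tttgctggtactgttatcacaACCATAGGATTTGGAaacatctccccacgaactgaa
Kcnt1: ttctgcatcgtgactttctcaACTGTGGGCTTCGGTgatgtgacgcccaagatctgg
Kcnk6: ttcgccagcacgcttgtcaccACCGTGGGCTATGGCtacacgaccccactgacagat
Kcnj2: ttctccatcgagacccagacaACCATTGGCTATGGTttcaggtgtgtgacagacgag
Kcnk13: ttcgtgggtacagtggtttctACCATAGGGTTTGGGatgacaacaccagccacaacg
Kcnd1: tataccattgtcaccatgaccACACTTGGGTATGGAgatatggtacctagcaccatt
Kcnk12: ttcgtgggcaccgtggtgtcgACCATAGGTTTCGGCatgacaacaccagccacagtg

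All 10 runs lie in protein-coding exons, since only coding sequence was searched. The run of Kcna2 is in exon 3 of 3 at chr3:107105224-107105238 on the plus strand, and that of Kcnj2 in exon 2 of 2 at chr11:111072207-111072221 on the plus strand. An intron splits the run of 6 of the 10, the 5 two-pore-domain genes and the voltage-gated Kcnd1: that of Kcnd1 goes from exon 1 to exon 2 (chrX:7824956-7831178, plus strand), that of Kcnk1 goes from exon 1 to exon 2 (chr8:125995808-126025019, plus strand) and that of Kcnk6 from exon 1 to exon 2 (chr7:29225860-29232168, minus strand). The windows of Kcnk1 and Kcnk6, both TWIK-type channels and the leading two-pore-domain genes of opposite populations, were equal at 43 of 57 bases (75.4%). Those of Kcnk12 and Kcnk13, both THIK-type channels and both leading in CD11b-positive cells, were equal at 48 of 57 (84.2%), and those of Kcnk6 and Kcnk13 at 31 of 57 (54.4%).

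The family took a mean of 1843 ± 133 CPM (SD, n = 17) in ACSA2-positive, 1329 ± 209 (n = 10) in CaMKII positive, 658 ± 47.1 (n = 15) in CD11b-positive and 629 ± 81.9 (n = 16) in double-positive cells. The lowest ACSA2-positive library had 1603 CPM, the highest CD11b-positive one 724 CPM and the highest double-positive one 790 CPM. Of the 91 members, 63 had a mean of at least 1 CPM in CaMKII positive, 49 in ACSA2-positive, 31 in double-positive and 19 in CD11b-positive cells, and 24 stayed under 1 CPM in every population. Of the remaining members, 37 were highest in CaMKII positive, 20 in ACSA2-positive, 6 in double-positive and 4 in CD11b-positive cells. These counts rank mean CPM without a test, and the highest means can lie close together, as in Kcnma1 and Kcnk13.

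Which subfamilies carried the family's RNA differed between the sorts. Two-pore-domain genes took 60.4% of the summed CPM in CD11b-positive and 57.4% in double-positive cells, against 20.4% in ACSA2-positive and 20.1% in CaMKII positive cells. Inward rectifiers took 16.1% and 15.9% in the first pair of populations and 1.45% and 4.73% in the second. Calcium- and sodium-activated genes took 31.2% in ACSA2-positive and 24.7% in CaMKII positive cells, against 5.99% in CD11b-positive and 6.98% in double-positive cells. The Kcna, Kcnb, Kcnc and Kcnd genes took 29.2% in both ACSA2-positive and CaMKII positive cells, 11.5% in CD11b-positive and 12.8% in double-positive cells. These shares are descriptions of level and were not tested.

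**Figure D1:**
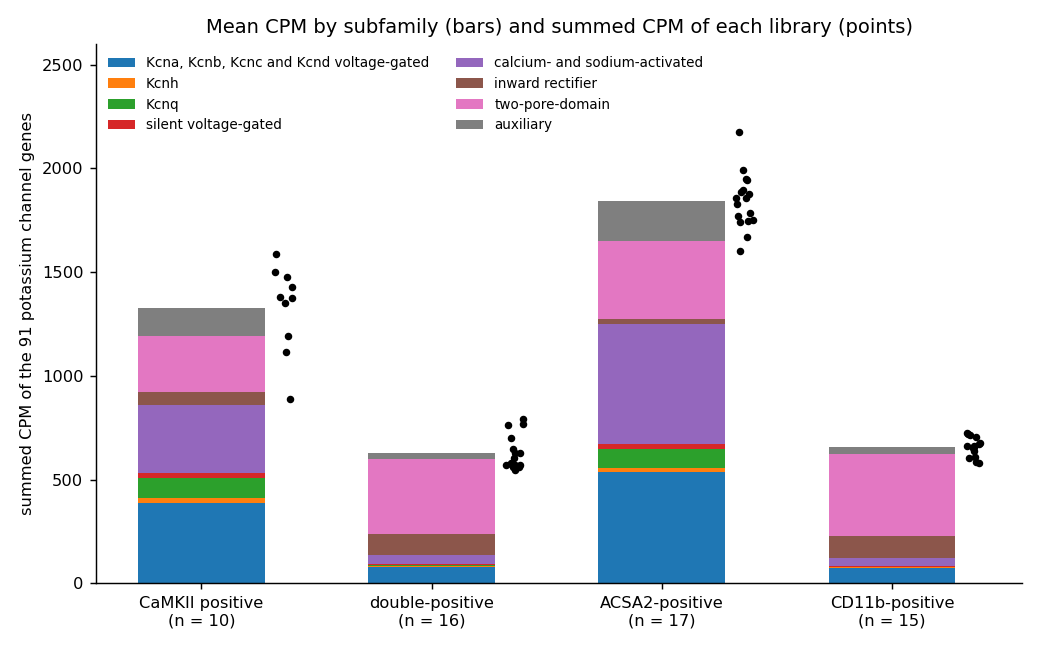
Stacked bars give the mean CPM of the 8 subfamilies in each population, and points beside each bar give the summed CPM of the 91 genes in each library. The ACSA2-positive libraries (1603 CPM or more) lie above all double-positive and CD11b-positive libraries (790 CPM or less), whose bars are mostly two-pore-domain genes.

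Ranked by CPM per kilobase of exon, the same 5 genes led in ACSA2-positive and in CaMKII positive cells: Kcnk1, Kcnip3, Kcna2, Kcnn3 and Kcnn2. Kcnk1, a TWIK-type leak channel and the family's highest gene per kilobase in ACSA2-positive cells, ran from 201 to 422 CPM there (median 296) and from 77.5 to 339 in CaMKII positive cells (median 198). In double-positive cells Kcnk1 lay between 0.777 and 9.95 CPM, and in CD11b-positive cells between 0 and 1.51, so the 2 higher populations did not overlap with the 2 lower ones. Kcna2, a delayed rectifier subunit of axons, ran from 281 to 409 CPM in ACSA2-positive (median 343), 113 to 257 in CaMKII positive (median 196), 2.41 to 14.1 in double-positive (median 6.29) and 0.438 to 2.52 in CD11b-positive cells (median 1.09).

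The small-conductance calcium-activated channels followed the same order of levels. Kcnn3 had 272 ± 35.3 CPM in ACSA2-positive, 154 ± 36.5 in CaMKII positive, 5.58 ± 3.52 in double-positive and 0.640 ± 0.555 in CD11b-positive cells. Kcnn2 had 187 ± 31.4, 99.8 ± 35.7, 3.01 ± 1.59 and 0.608 ± 0.609 CPM in the same order. Kcnip3, a calcium-binding auxiliary subunit of Kcnd channels that is also known as a transcriptional repressor, had 152 ± 22.0 and 86.5 ± 23.9 CPM in the first 2 populations and 22.8 ± 6.42 and 23.3 ± 4.70 CPM in the last 2. Of these leaders, Kcnip3 alone stayed above 10 CPM in all 58 libraries.

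Another 5 genes led in both CD11b-positive and double-positive cells: Kcnk6, Kcnj2, Kcnk13, Kcnd1 and Kcnk12. Kcnk6, a TWIK-type channel known in microglia and macrophages, ran from 273 to 394 CPM in CD11b-positive (median 328) and from 227 to 406 in double-positive cells (median 276), against 7.00 to 39.7 in CaMKII positive (median 19.6) and 0 to 4.58 in ACSA2-positive cells (median 1.29). Kcnj2, the classical strong inward rectifier, ran from 82.1 to 139.6 CPM in CD11b-positive and from 66.6 to 111 in double-positive cells, against 24.2 to 97.4 in CaMKII positive and 0.879 to 8.47 in ACSA2-positive cells. The CaMKII positive value of 97.4 belonged to mouse 8, whose library held the most oligodendrocyte markers, and the next highest CaMKII positive library had 44.5 CPM, so that in Kcnj2 this library alone overlapped with CD11b-positive cells.

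Kcnk13, the THIK-type channel that holds the resting potential of microglia, had 42.1 ± 5.68 CPM in CD11b-positive and 43.7 ± 7.27 in double-positive cells, and 3.01 ± 1.36 and 1.54 ± 1.15 in CaMKII positive and ACSA2-positive cells. Its relative Kcnk12 had 18.0 ± 4.78 and 13.2 ± 5.36 CPM in the first pair and 1.08 ± 1.76 and 0.468 ± 0.543 in the second. Kcnd1, a rapidly inactivating voltage-gated channel, had 62.8 ± 8.59 and 55.8 ± 11.2 CPM in the first pair, and was still present in the second, at 12.1 ± 4.20 and 16.7 ± 5.12 CPM.

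**Figure D2:**
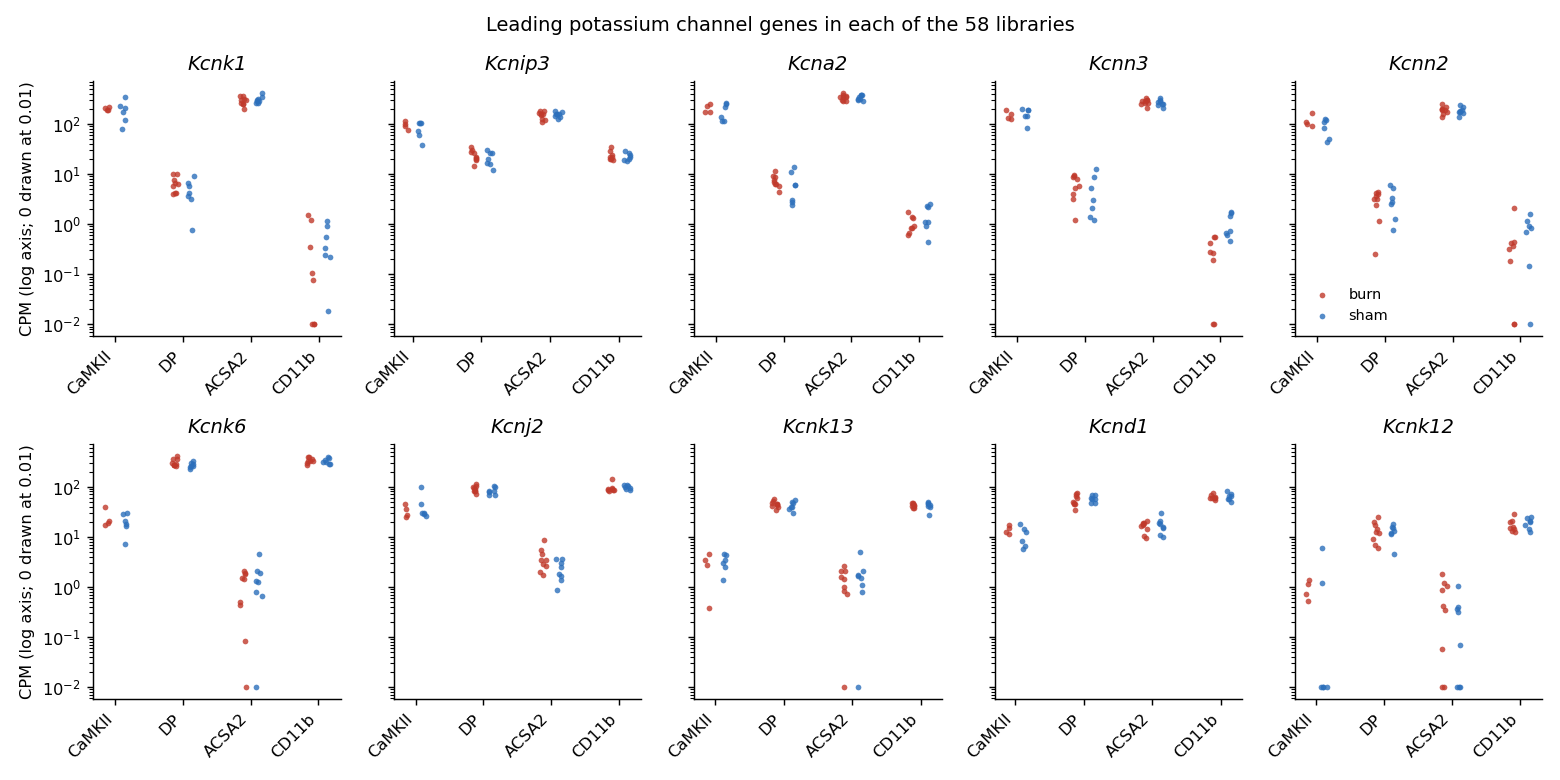
Each panel shows 1 gene, with CPM on a log axis (a count of 0 is drawn at 0.01) and 1 point per library, burn and sham apart, in the 4 populations. Kcnk1, Kcna2, Kcnn3 and Kcnn2 are high in CaMKII positive and ACSA2-positive libraries, Kcnk6, Kcnj2, Kcnk13 and Kcnk12 in double-positive and CD11b-positive libraries, and burn and sham points overlap in every panel.

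The populations were then compared gene by gene with edgeR's quasi-likelihood test, with sequencing batch and treatment in the model and Benjamini-Hochberg adjustment over all genes tested. A gene was called where the adjusted p (p.adj) did not exceed 0.05 and the log2 fold change (log2FC) was 1 or more in either direction. The study made no such comparison, and the genes named are those of fixed lists of channels known in microglia, astrocytes and cortical neurons and the called genes with the largest differences at 1 CPM or more. These lists were chosen with earlier results of these data known, so counts over them are descriptions. Libraries of the same mouse enter both sides, and the fits with mouse as a block are given where they change a call.

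ACSA2-positive and CD11b-positive cells differed in most of the family. Of 84 members tested, 56 were higher and 13 lower in ACSA2-positive cells, where 54.2% of all genes were called (32.4% higher, 21.8% lower). The median log2FC of the members was 3.21 and that of all genes 0.28. CPM of the groups did not overlap in 31 of the 84 members, against 25.1% of all genes. By subfamily, 13 Kcna, Kcnb, Kcnc and Kcnd genes were higher and 3 lower, all 5 Kcnq genes were higher, 6 calcium- and sodium-activated genes were higher and 1 lower, 6 Kcnh genes were higher and 1 lower, 10 auxiliary genes were higher and 1 lower, 6 silent subunits were higher and 1 lower, 6 inward rectifiers were higher and 2 lower, and the two-pore-domain genes split into 4 and 4.

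Kcnk1 was higher in ACSA2-positive cells by a log2FC of 9.68 (SE 0.35, p.adj = 9.28e-23, edgeR quasi-likelihood, Benjamini-Hochberg), and every ACSA2-positive library lay above every CD11b-positive one. Kcnn3 (log2FC 8.90), Kcnmb1, the BK channel's smooth muscle-type auxiliary subunit (8.69), Kcnn2 (8.66) and Kcna2 (8.19) were next. Mural cell markers stood at 748 CPM in ACSA2-positive and 7.09 CPM in CD11b-positive cells, and endothelial markers at 672 and 93.7 CPM. Oligodendrocyte precursor markers stood at 174 and 4.50 CPM, while microglia and border macrophage or monocyte markers were lower in ACSA2-positive cells. The part of these lists was not tested. Kcnk2 and Kcnk10, the TREK-type channels that respond to stretch and lipids, had 50.3 ± 13.4 and 21.6 ± 4.65 CPM in ACSA2-positive cells and under 1 CPM in CD11b-positive cells, with log2FC of 7.35 and 7.77. Kcng4, a silent subunit that joins Kcnb channels, gave 9758 counts in ACSA2-positive and 1 count in CD11b-positive libraries, a ratio of pooled CPM of 8678 with a 95% counting interval of 1557 to 342790. The voltage-gated subunits Kcna5 and Kcns1 had 0 counts in CD11b-positive libraries and were at least 56.0-fold and 157-fold higher against a floor of 3 counts over the group, and Kcnh8, at 22 counts in all ACSA2-positive libraries, at least 6.52-fold higher.

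Genes known from neurons were among those higher in ACSA2-positive cells: 10 of the 11 on the list of cortical neuron channels were called higher, and 0 lower. Of all members 56 of 84 were called higher, and of all genes 32.4%. They included Kcnd2 (28.5 ± 16.4 CPM against 0.150 ± 0.266, log2FC 7.47), Kcnq3, a subunit of the M-current (73.8 ± 18.7 against 0.851 ± 0.375, log2FC 6.54), Kcnc1, a fast delayed rectifier (log2FC 5.62), and Kcnj3, a G protein-gated rectifier (4.48). Smaller levels stood behind Kcna1 (4.11), Kcnip4 (3.37) and Kcnj6 (2.77), all under 2 CPM in ACSA2-positive cells. By edgeR Kcnip4 lost its call with burn mice alone (2.55, p.adj = 0.0880), and Kcnj6 with burn mice alone (2.29, p.adj = 0.0941) and with sham mice alone (3.56, p.adj = 0.0589). The 7 markers of all neurons summed on average to 38.7 CPM in ACSA2-positive and 7.12 CPM in CD11b-positive cells, and to 207 CPM in the ACSA2-positive sham library of mouse 13, against a median of 25.01. The part of neuronal RNA in these differences was not tested. Kcna6 (log2FC 7.53) and Kcnj3 share 39.6% and 31.1% of their exon bases with a gene on the opposite strand, and whether the counting used the strand is not given in the sources used here, so their reads are uncertain.

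The 5 channels listed as known in microglia were all lower in ACSA2-positive cells: Kcnk6 (log2FC -7.93, SE 0.35, p.adj = 3.12e-20, edgeR quasi-likelihood), Kcnj2 (-4.87), Kcnk13 (-4.77), Kcna3, a lymphocyte and microglia delayed rectifier (-2.80), and Kcnn4, the intermediate-conductance calcium-activated channel (-2.02). Of all members 13 of 84 were called lower, and of all genes 21.8%. Kcnn4 lost its call with burn mice alone (-1.37, p.adj = 0.0885, edgeR). Kcnk12 (-5.36), Kcnh4 (-5.64), Kcnj9 (-3.81) and Kcnd1 (-1.87) were lower too. Kcnh4 and Kcnj9, both best known from neurons, were low genes here, at 1.49 ± 1.06 and 6.45 ± 2.53 CPM in CD11b-positive cells. The silent subunit Kcng2 (-2.10) was under 1 CPM in both.

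**Figure D3:**
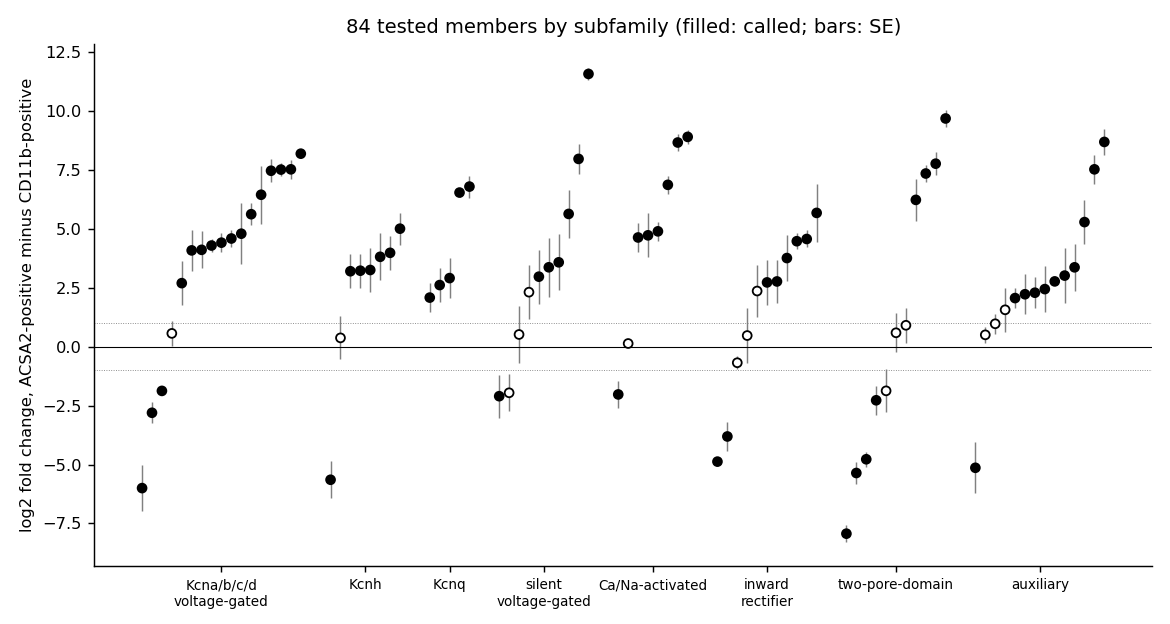
Points are the 84 tested members, grouped by subfamily, with the log2 fold change of ACSA2-positive minus CD11b-positive cells on the vertical axis, SE as bars and called genes filled. Most points lie above 0 in every subfamily, with the smallest share in the two-pore-domain genes (6 of 11), which run from -7.93 (Kcnk6) to 9.68 (Kcnk1).

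The double-positive cells were set against the CD11b-positive cells because their markers and leading channels were alike. That choice makes calls among the leading channels less likely, so their absence is no separate support for likeness. Of 81 members tested, 14 were higher and 1 lower in double-positive cells, where 7.58% of all genes were called (5.6% higher, 1.98% lower). With burn mice alone 9 members were called (3.27% of all genes), and with sham mice alone 2 (1.42% of all genes). The median log2FC was 0.79 over the members and 0.09 over all genes, and the groups overlapped in every member, as they did in all but 0.278% of all genes. The higher members included 4 of the genes that led in ACSA2-positive cells: Kcnk1 (log2FC 3.76, SE 0.51, p.adj = 1.77e-06, edgeR quasi-likelihood), Kcnn3 (3.24), Kcnn2 (2.59) and Kcna2 (2.38). Kcna6 (2.65), Kcnk2 (2.03) and Kcnq3 (1.57) were higher too. With sham mice alone Kcnn3, Kcnn2, Kcna6, Kcnk2 and Kcnq3 lost their calls (p.adj = 0.0518 to 0.554, edgeR), and Kcnk2 also with burn mice alone (1.45, p.adj = 0.217). All 7 had means of 1.18 to 6.98 CPM in double-positive cells. Kcng4 gave 240 counts against 1, a ratio of 251 (95% counting interval 44.7 to 9967). The astrocyte marker list moved with them, at 894 CPM in double-positive and 248 CPM in CD11b-positive cells with 7 and 6 of its 7 genes at 1 CPM or more, and its part in these differences was not tested.

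None of the 5 microglia channels was called between double-positive and CD11b-positive cells. As 7.58% of all genes were called there, 0 of 5 is near the general share. Kcnk6, Kcnj2 and Kcnk13 are also among the leading channels for which the pair was chosen. Kcnk6 passed the adjustment at a log2FC of -0.29 (SE 0.06, p.adj = 0.000556, edgeR quasi-likelihood), short of the fold threshold, with 292 ± 47.7 against 333 ± 40.1 CPM and a lower value in double-positive cells in 13 of 14 mice. The microglia markers stood at 20078 CPM in double-positive and 24258 CPM in CD11b-positive cells and the 5 markers of border macrophages or monocytes at 106 and 262 CPM, and the part of these lists was not tested. Kcnj2 (-0.19, p.adj = 0.0485) likewise passed the adjustment alone, while Kcnk13 (-0.02, p.adj = 0.924), Kcna3 (0.03, p.adj = 0.962) and Kcnn4 (-0.62, p.adj = 0.224) did not pass. DESeq2 called 0 of the 5 as well, and 5.31% of all genes. Kcnd2 was called only with the block (3.15, p.adj = 0.0327) or with burn mice alone (3.15, p.adj = 0.0454) or by DESeq2 (2.27, p.adj = 0.0209). DESeq2 also called Kcna1 (2.58, p.adj = 0.0281) and Kcnc1 (1.68, p.adj = 0.0314).

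CaMKII positive and ACSA2-positive cells shared their leading channels, and 16 members were higher and 5 lower in CaMKII positive cells among 84 tested, where 16.2% of all genes were called (12.7% higher, 3.5% lower). By library size only, 16 were higher and 2 lower, and without the CaMKII positive library of mouse 8, 14 and 3. With burn mice alone 10 members were called (9.67% of all genes), and with sham mice alone 10 (10.2% of all genes). The groups did not overlap in 5 members, against 6.28% of all genes, and the median log2FC was 0.50 over the members and 0.00 over all genes. The members' median was 0.21 without the CaMKII positive library of mouse 8, 0.10 with burn mice alone and 0.80 with mouse as a block. Higher in CaMKII positive cells were 4 of the 5 microglia channels, Kcnk6 (log2FC 3.68, 21.6 ± 8.96 against 1.31 ± 1.11 CPM), Kcnj2 (3.42, 38.7 ± 21.8 against 3.11 ± 1.82), Kcna3 (2.26) and Kcnn4 (2.19), the last of which lost its call without the library of mouse 8 (1.75, p.adj = 0.0583) or of mouse 24 (2.29, p.adj = 0.0524). Kcnn4 also lost it with burn mice alone (1.11, p.adj = 0.426) and with sham mice alone (2.67, p.adj = 0.124), and Kcna3 with sham mice alone (1.96, p.adj = 0.209, edgeR). Kcnk13 was not called, at a log2FC of 0.83. The microglia markers were also higher in CaMKII positive cells (964 against 86.6 CPM), as were the endothelial markers (5463 against 672), and their part in these differences was not tested.

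Other members higher in CaMKII positive cells were Kcnq1, a channel of epithelia and heart (log2FC 3.51, 10.3 ± 3.07 against 0.791 ± 0.585 CPM), Kcnj15 (3.34) and Kcna1 (2.01). Kcnq1 did not overlap between them, from 6.41 CPM up in CaMKII positive and up to 1.602 CPM in ACSA2-positive libraries. Kcnh8 (4.70) rested on 1.29 ± 2.30 CPM, of which the library of mouse 24 alone held 7.65. Kcnh4 (5.78) stayed under 1 CPM on average in both. Neither Kcnh8, Kcnj15 nor Kcna1 passed the test in burn mice alone or in sham mice alone.

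Lower in CaMKII positive cells were Kcnt1, the large sodium-activated channel (log2FC -1.84, SE 0.30, p.adj = 1.08e-05, edgeR quasi-likelihood, 16.3 ± 10.3 against 57.7 ± 27.9 CPM), Kcnk2 (-1.38), Kcne1l (-1.33), Kcnn2 (-1.06) and Kcnip3 (-1.02). The last 2 sat at the fold threshold: Kcnn2 was at -0.91 without the library of mouse 8, and Kcnip3 at -0.87 without it and at -0.999 with mouse as a block, which ended its call, while the block took Kcna2 over the threshold (-1.004, p.adj = 5.16e-06). By library size only Kcnn2 was at -0.90 and Kcnip3 at -0.86, with RLE size factors and with DESeq2 Kcnip3 was at -0.96, and with burn mice alone they were at -0.82 each. Kcne1l lost its call by library size only (-1.16, p.adj = 0.0568) and with sham mice alone (-1.84, p.adj = 0.107, edgeR). Astrocyte markers were lower in the same direction, at 19093 against 39794 CPM.

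CaMKII positive and double-positive cells, the 2 sorts of the motor cortex, also differed in most of the family. Of 84 members, 50 were higher and 8 lower in CaMKII positive cells, where 45.8% of all genes were called (26.4% higher, 19.4% lower), with a median log2FC of 2.99 over the members and 0.05 over all genes. The groups did not overlap in 28 members, against 20.3% of all genes. Kcnk1 (log2FC 5.03, SE 0.28, p.adj = 6.23e-15, edgeR quasi-likelihood), Kcnn2 (4.96), Kcnn3 (4.71) and Kcna2 (4.69) were higher, and 9 of the 11 cortical neuron channels were called higher, without Kcnip4 and Kcnma1. The largest differences belonged to lower genes: Kcna5 (7.13, 2.50 ± 2.31 against 0.0470 ± 0.134 CPM), Kcns1 (7.10), Kcnj11, the pore of KATP channels (6.95), Kcne1l (6.52) and Kcnmb1 (6.40). Kcnmb1 ran from 2.02 to 58.2 CPM in CaMKII positive cells with a median of 5.64, and the highest value was that of mouse 8. Mural cell markers, a list of 5 genes, stood at 1138 CPM in CaMKII positive and 25.1 CPM in double-positive cells. Astrocyte markers stood at 19093 and 894 CPM and the markers of all neurons at 75.6 and 14.9 CPM. Endothelial markers stood at 5463 and 137 CPM, oligodendrocyte precursor markers at 413 and 17.0 CPM and oligodendrocyte markers at 975 and 125 CPM, and the part of these lists in the differences was not tested.

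Lower in CaMKII positive cells were Kcnk13 (log2FC -4.10, SE 0.26, p.adj = 1.45e-13, edgeR quasi-likelihood), Kcnk12 (-4.10), Kcnk6 (-3.93), Kcnj9 (-3.32), Kcnh4 (-2.46), Kcnd1 (-2.37) and Kcnj2 (-1.48). The microglia markers were lower too, at 964 against 20078 CPM, and their part was not tested. Kcnh4 lost its call with burn mice alone (-2.04, p.adj = 0.103, edgeR). Kcnj9 had 9.86 ± 3.18 CPM in double-positive cells, from 4.01 to 15.9, and 1.16 ± 1.06 in CaMKII positive cells, from 0 to 2.96, so these groups did not overlap. The G protein-gated subunit it usually joins, Kcnj3, went the other way, at 0.293 ± 0.313 and 5.43 ± 2.77 CPM (log2FC 3.84), as did Kcnj6 (3.07), which lost its call with burn mice alone (2.50, p.adj = 0.155) and with sham mice alone (3.28, p.adj = 0.0503, edgeR).

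Kcnma1, the pore of the BK channel, was present in all 4 populations. It had 38.1 ± 8.37 CPM in CaMKII positive, 37.7 ± 11.5 in ACSA2-positive, 34.6 ± 5.20 in CD11b-positive and 30.7 ± 3.99 in double-positive cells. It was called in none of the population comparisons, at log2FC of 0.14 (SE 0.11) for ACSA2-positive against CD11b-positive, -0.23 (SE 0.07) for double-positive against CD11b-positive, -0.03 (SE 0.14) for CaMKII positive against ACSA2-positive, a sign that changed with the scaling, and 0.07 (SE 0.11) for CaMKII positive against double-positive cells. In double-positive against CD11b-positive cells Kcnma1 passed the adjustment alone (p.adj = 0.0283, edgeR quasi-likelihood), short of the fold threshold.

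A list of 24 genes that work beside potassium channels (HCN channels, auxiliary proteins, sodium pump subunits and chloride cotransporters) was fitted in the same way. Of 22 tested in ACSA2-positive against CD11b-positive cells, 13 were higher and 3 lower, against 32.4% and 21.8% of all genes. Between CaMKII positive and double-positive cells 13 of 23 were higher and 2 lower, against 26.4% and 19.4%. Double-positive against CD11b-positive cells gave 6 higher and 0 lower of 22, against 5.6% and 1.98%, and CaMKII positive against ACSA2-positive cells 5 higher and 4 lower of 22, against 12.7% and 3.5%. Atp1b2, a glial sodium pump subunit, had means of 2838 CPM in ACSA2-positive and 4.74 CPM in CD11b-positive cells, and Lgi1, a secreted partner of Kcna channels, 205 and 0.388 CPM. Slc12a2, a sodium, potassium and chloride cotransporter, was higher in CD11b-positive cells, at 283 against 50.1 CPM. Amigo1, an auxiliary protein of voltage-gated channels, had 119, 62.1, 13.2 and 12.8 CPM in ACSA2-positive, CaMKII positive, double-positive and CD11b-positive cells. The first 2 populations lay above the last 2, as in Kcna2, but the last 2 means of Amigo1 were close (SD 3.06 and 2.46 CPM). Abcc9, a subunit that joins Kcnj11, had 84.2 CPM in CaMKII positive and 57.5 CPM in ACSA2-positive cells, while Abcc8, the neuronal alternative, was at 0.151 CPM or less in every population.

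The question of the study was whether a burn changes gene expression in these cells, and in the potassium channel genes no difference passed the test. In CaMKII positive, double-positive, ACSA2-positive and CD11b-positive cells, 83, 78, 82 and 73 members were tested and 0 were called by edgeR's quasi-likelihood test in each, with 0.0% of all genes called in each. DESeq2 called 0 members in each as well, and 0.0107%, 0.00749%, 0.0967% and 0.307% of all genes. An unadjusted p under 0.05 was found for 2, 4, 4 and 5 members, against 3.9%, 7.01%, 10.7% and 7.81% of all genes, and by DESeq2 for 3, 6, 5 and 3, against 2.78%, 4.29%, 6.81% and 4.58%. These edgeR counts moved with single mice left out: the 2 of CaMKII positive cells became 0 without mouse 24, 1 without mouse 2 and 4 without mouse 15, the 4 of double-positive cells 9 without mouse 11 and 7 without mouse 18, the 4 of ACSA2-positive cells 9 without mouse 11, and the 5 of CD11b-positive cells 1 without mouse 16 or 24, 2 without mouse 23 and 3 without mouse 17, 19, 21 or 22. Burn and sham CPM overlapped in every member tested, where 0.37%, 0.0%, 0.0143% and 0.0153% of all genes did not overlap. The median log2FC of the members was -0.05, 0.10, 0.06 and -0.06. Of the 24 partner genes 22, 21, 22 and 20 were tested in the burn comparisons and 0 were called in each. An unadjusted p under 0.05 was seen for 0, 1, 3 and 1 of them by edgeR.

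The summed CPM of the family lay close in burn and sham mice. It was 1349 ± 119 (n = 4) and 1316 ± 264 (n = 6) in CaMKII positive, 654 ± 93.4 (n = 9) and 598 ± 55.2 (n = 7) in double-positive, 1849 ± 89.9 (n = 9) and 1836 ± 177 (n = 8) in ACSA2-positive, and 658 ± 43.1 (n = 8) and 658 ± 54.8 (n = 7) in CD11b-positive cells. The leading channels differed by little between burn and sham mice. Kcnk1 in ACSA2-positive cells had a burn log2FC of -0.11 (SE 0.10) and Kcna2 there -0.04 (SE 0.08). In CD11b-positive cells Kcnk6 had 0.06 (SE 0.10), Kcnj2 -0.11 (SE 0.10), Kcnk13 0.02 (SE 0.11) and Kcnd1 0.00 (SE 0.10). Of the members at 10 CPM or more in double-positive cells, Kcnip3 had the highest burn log2FC (0.25, SE 0.18), and Kcnk6 there had 0.16 (SE 0.08, unadjusted p = 0.0535, p.adj = 0.713, edgeR quasi-likelihood), with 257 to 406 CPM in burn and 227 to 328 CPM in sham mice. Batch 1 of the double-positive libraries holds burn mice only, and in batch 3 alone the means of Kcnk6 were 273 and 256 CPM.

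The precision of the burn comparisons depended on the level of the gene. Among members with a mean of at least 10 CPM, burn log2FC ran from -0.26 to 0.80 in ACSA2-positive (23 genes), from -0.19 to 0.25 in double-positive (7 genes), from -0.22 to 0.17 in CD11b-positive (7 genes) and from -1.29 to 0.95 in CaMKII positive cells (25 genes), with median SE of 0.17, 0.11, 0.11 and 0.32. An absolute log2FC of at least 1 was seen there in 1 gene, Kcnmb1 in CaMKII positive cells (-1.29, SE 0.73), where mouse 8, a sham mouse, held the 58.2 CPM named above. Mural markers there stood at 910 ± 207 CPM in burn and 1291 ± 242 CPM in sham mice, and their part was not tested. Under 1 CPM it was seen in 16 of 20, 17 of 47, 16 of 33 and 25 of 54 members of the CaMKII positive, double-positive, ACSA2-positive and CD11b-positive cells, at SE with medians of 2.16, 1.27, 1.35 and 1.43.

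**Figure D4:**
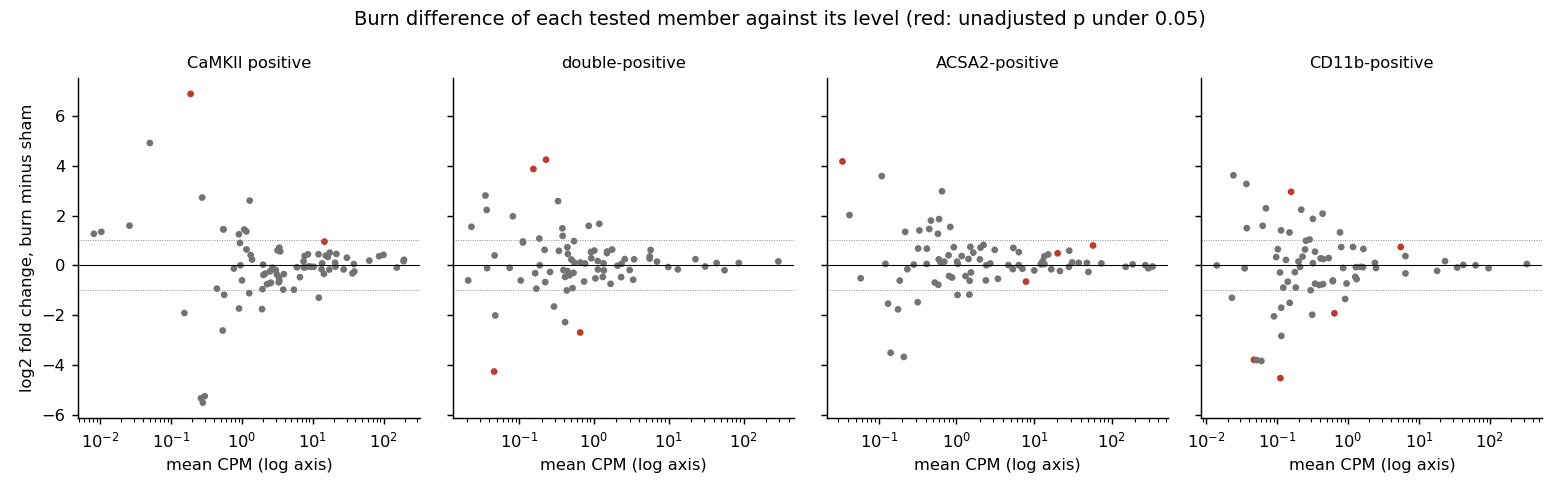
Each point is a tested member, with its mean CPM on a log axis and its log2 fold change of burn minus sham on the vertical axis, 1 panel per population, and red for an unadjusted p under 0.05. The spread narrows to the right, and at 10 CPM or more the points of the ACSA2-positive, double-positive and CD11b-positive panels stay between -0.26 and 0.80.

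Of the 3 members with the smallest p in each population, 11 in all are given for what they are, since none passed the adjustment. In CaMKII positive cells the silent subunits Kcng2 and Kcng3 had 0 counts in all sham libraries and came from the burn library of mouse 24, at 1.73 and 0.481 CPM, against at most 0.163 and 0.0223 CPM in the other burn libraries.

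In ACSA2-positive cells Kcnt1 had 72.7 ± 29.0 CPM in burn (35.3 to 109, median 81.2) and 40.9 ± 14.3 in sham mice (21.7 to 63.3, median 38.2). Of the 9 burn libraries, 5 lay above every sham library and 4 among them. The log2FC was 0.80 (SE 0.24, unadjusted p = 0.00288, p.adj = 0.458, edgeR quasi-likelihood), and p.adj ran from 0.0731 to 0.746 over the alternatives. In batch 3 alone the means of Kcnt1 were 73.3 and 39.0 CPM. Endothelial markers in ACSA2-positive cells stood at 824 ± 299 CPM in burn and 500.1 ± 243 CPM in sham mice, and their part was not tested. Kcng4 had 23.2 ± 7.01 and 16.8 ± 4.82 CPM (log2FC 0.49, SE 0.17) and Kcnj3 6.20 ± 2.48 and 9.74 ± 2.26 CPM (log2FC -0.65, SE 0.23), each with p.adj = 0.458 in the same test and with groups that overlapped.

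In double-positive cells the smallest p belonged to Kcnq1, Kcnj4 and Kcns3, all with group means under 0.4 CPM and p.adj = 0.708 by edgeR. In CD11b-positive cells they belonged to Kcnh1, under 1 CPM in every library, to Kcna3 and to Kcnn3, each with p.adj = 0.639 by edgeR. Kcna3 had 4.23 to 11.2 CPM in burn (median 6.05) and 2.35 to 10.3 CPM in sham mice (median 2.82), a log2FC of 0.74 (SE 0.33), and the top of the sham group was the library of mouse 19 alone, the next being 5.59 CPM. Markers of border macrophages or monocytes stood at 306 ± 76.6 CPM in burn and 212 ± 73.6 CPM in sham mice, and their part was not tested. Kcnn3 had 0.284 ± 0.220 CPM in burn and 1.05 ± 0.547 CPM in sham mice (log2FC -1.92, SE 0.90).

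**Figure D5:**
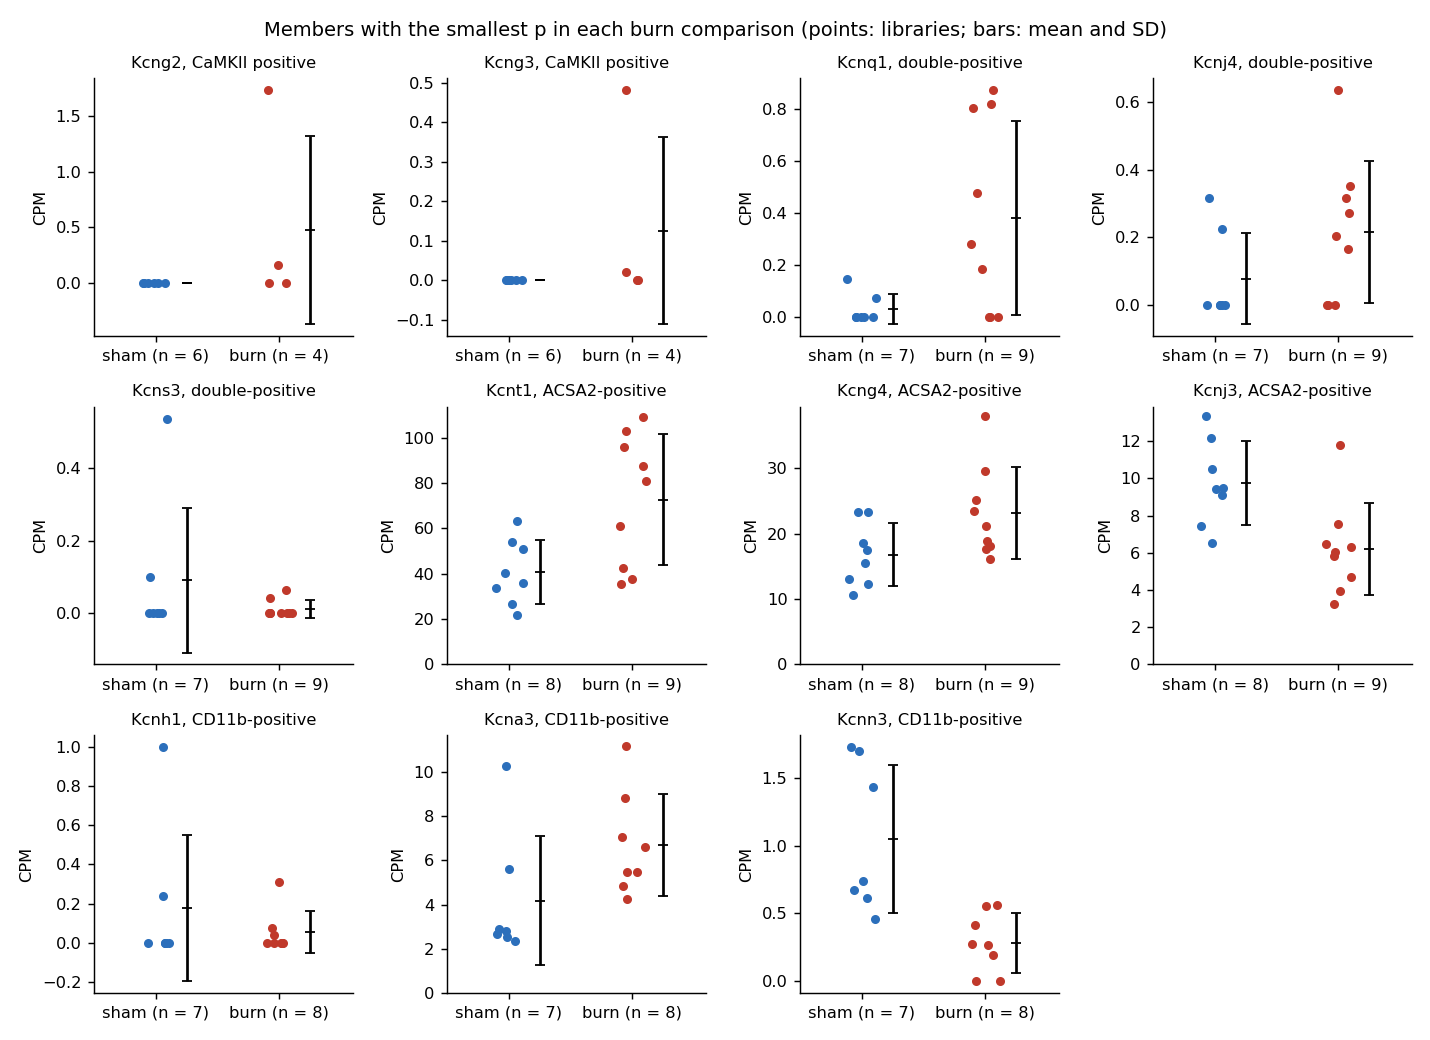
Panels show 11 of the members with the smallest p of each population, with CPM on the vertical axis, 1 point per library in sham and burn mice, and bars for mean and SD (which reach below 0 in the lowest genes). Sham and burn points overlap in all 11 panels, and the 2 panels of Kcng2 and Kcng3 hold 1 high library.

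Whether the burn difference itself differed between populations was tested as an interaction. Between CaMKII positive and double-positive cells 0 of 84 members were called by edgeR (0.00977% of all genes), with an unadjusted p under 0.05 for 5 members (6.01% of all genes). The smallest p values belonged to Kcng2 (p.adj = 0.659) and Kcnq1 (p.adj = 0.760), both under 1 CPM in double-positive cells. Between CD11b-positive and ACSA2-positive cells 0 of 84 were called by edgeR (0.00323% of all genes), with an unadjusted p under 0.05 for 10 members (8.67% of all genes). There the smallest p belonged to Kcnn3, whose burn log2FC was lower in CD11b-positive cells by 1.82 (SE 0.46, p.adj = 0.218, edgeR quasi-likelihood) at levels of about 1 CPM or less in that population, and to Kcnk10 (p.adj = 0.323). Libraries of the same mice enter both sides, and with mouse as a block 5 members had an unadjusted p under 0.05, against 978 of 30696 genes, 0 genes were called, and p.adj was 1.00 for both genes. With the block 5 members also did so between CaMKII positive and double-positive cells, against 429 of 29558 genes, with 0 genes called and p.adj = 1.00 for Kcng2 and Kcnq1. No DESeq2 fit was made for the interactions.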

How the data were processed

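RNA of the sorted cells was sequenced as stranded, rRNA-depleted total RNA. The authors trimmed reads with fastp, aligned them with STAR to GRCm39 (the submitters' notes also name mm10), and counted them per Ensembl gene with GenomicAlignments. They deposited raw read counts, 1 table per population, which were used unchanged. The log2-like normalised values the authors also deposited were not used. No column was left unmatched. Rows that name no gene: 0. Left out were 5 of 63 libraries: mouse 3 in all 4 populations, and the double-positive library of mouse 8, with 331215 counts. The 58 others held 13346143 to 134703744 counts. No libraries held identical counts. Replicates are separate mice.

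Symbols, biotypes, exon lengths and coding sequences were taken from GENCODE M21 (GRCm38), and CPM from total counts. Tests were run in R 4.3.3 with edgeR 4.0.16 (TMM, glmQLFit, glmQLFTest) on genes whose counts summed to 10 or more, with batch as a covariate for burn against sham and batch and treatment for populations. The model for interactions had batch within population. The sample labels give no batch, and the assignment of libraries to sequencing batches was taken from the study's supplement. Adjustment was by Benjamini-Hochberg over all genes. SE were derived from the log2FC and the square root of its F statistic. The scripts were tested on simulated counts. Members, lists and comparisons were chosen with earlier results of these data known. Named genes were the fixed lists, the 3 smallest p of each burn comparison, the 5 largest called differences per direction and population comparison at 1 CPM or more, the 5 highest per kilobase in each population, and the 2 smallest p of each interaction. Kcnc4 was added for its sequence. Some genes that these rules name are not reported here, though they stay in every fit and count. Of the named genes, 40 in all were tested under alternatives: DESeq2 1.42.0, other size factors, other filters, no batch term, batch 3 alone, burn or sham mice alone, all libraries, a mouse block, and each mouse left out. Removal of 4 libraries from the population comparisons was chosen after seeing their marker sums. Promoter motifs were searched in an exploratory step and are not reported.

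A mouse number marks 1 animal in every population. Over mice whose batch and treatment group held another library, the median correlation of deviations from the group means was 0.0415 (ACSA2-positive with CD11b-positive, 13 mice), 0.0155 (double-positive with CD11b-positive, 13 mice), 0.100 (CaMKII positive with ACSA2-positive, 8 mice) and 0.0599 (CaMKII positive with double-positive, 8 mice).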

Additional observations from a re-analysis of the deposited data

Results flagged for a closer look

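Of 68 groups of 4 to 10 libraries in the members given above, 8 held a library that stood far from the nearest other one by Dixon's test. Its chance rate of about 1 in 20 groups holds for normally distributed values. CPM near 0, as in Kcng3, Kcnh1 and Kcns3 here, need not follow that rate, so the count is not read as an excess. In the CaMKII positive burn group the library of mouse 24 stood alone in Kcng2 (1.73 CPM, others 0 to 0.163) and Kcng3 (0.481 CPM, others 0 to 0.0223), and the excitatory neuron markers were highest in it (397 CPM). Their part in these values was not tested. In the double-positive sham group mouse 15 stood apart in Kcns3 (0.536 CPM, others 0 to 0.100). In ACSA2-positive cells mouse 22 of the burn group had 11.8 CPM of Kcnj3, where the others had 3.22 to 7.54.

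In CD11b-positive cells Kcna3 was at 10.3 CPM in sham mouse 19 (others 2.35 to 5.59) and Kcnj2 at 139.6 CPM in burn mouse 7 (others 82.1 to 95.1). Kcnh1 stood apart in both groups there, at 0.310 CPM in burn mouse 2 (others 0 to 0.0758) and at 0.999 CPM in sham mouse 16 (others 0 to 0.237).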

How the results depend on the processing

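The 40 named members gave 112 log2FC values in the burn, population and interaction comparisons, and 1146 alternatives were computed for them. Of these, 1092 kept their direction and their side of the threshold, 35 kept their direction and lost the call, 6 gained one and 13 changed sign. The 0 called members of each burn comparison stayed at 0 under every alternative run, leaving out each mouse of that population included (0 to 0). Those of the interactions stayed at 0 with RLE size factors, filterByExpr and the block and, between CaMKII positive and double-positive cells, without each of the 10 mice with a CaMKII positive library (0 to 0). Other mice were not left out of the interactions. DESeq2 called 3, 2, 27 and 80 of all genes between burn and sham in CaMKII positive, double-positive, ACSA2-positive and CD11b-positive cells, where edgeR called 0, and all deposited libraries gave 136 in double-positive cells. The members with an unadjusted p under 0.05 numbered 1 to 4, 1 to 7, 3 to 7 and 3 to 5 in these populations over the other settings. With no filter on low counts edgeR called 14 genes in double-positive and 4 in ACSA2-positive cells.

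Of the population counts, 15 called members in double-positive against CD11b-positive cells became 9 with burn mice alone and 2 with sham mice alone, and 21 in CaMKII positive against ACSA2-positive cells became 10 and 10, with fewer libraries in each of these fits. The replicate block gave 51 higher and 13 lower members in ACSA2-positive against CD11b-positive, 11 and 2 in double-positive against CD11b-positive, 13 and 5 in CaMKII positive against ACSA2-positive and 45 and 10 in CaMKII positive against double-positive cells, where it called 46.5%, 3.88%, 11.1% and 35.5% of all genes, and it changed no named call beyond those given above for Kcna2, Kcnd2 and Kcnip3. Scaling by library size only moved the median of all genes from 0.00 to 0.16 in CaMKII positive against ACSA2-positive and from 0.05 to 0.29 in CaMKII positive against double-positive cells. All values that changed sign were small. In CaMKII positive against ACSA2-positive cells Kcnma1 (-0.03) became 0.0271 with DESeq2, 0.0272 with RLE size factors, 0.126 by library size only, 0.0245 with the block and 0.104 in sham mice, and ran from -0.0306 to 0.0297 (without mouse 8) with 1 library left out. Kcnc1 (-0.15) became 0.0145 by library size only and 0.0467 in sham mice, and Kcnip4 (0.30) -0.17 in burn mice. In double-positive against CD11b-positive cells Kcna3 (0.03) became -0.0992 in burn mice and -0.0795 with the block, Kcnj3 (-0.41) 0.10 in sham mice, and Kcnk13 (-0.02) 0.0390 by library size only. The cause of these changes was not tested.

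Removing a library that stood apart gave 71 called members in place of 69 in ACSA2-positive against CD11b-positive, 14 in place of 15 in double-positive against CD11b-positive, 17 to 21 in place of 21 in CaMKII positive against ACSA2-positive and 57 to 60 in place of 58 in CaMKII positive against double-positive cells. CaMKII positive burn is the smallest group, at 4 libraries, and members under 1 CPM rest on few counts.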

Other observations

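A pair of members outside the named lists, chosen after their values were seen, were higher in ACSA2-positive and CaMKII positive cells than in the other populations. Kcnc4, a fast-inactivating voltage-gated channel, had 48.1 ± 8.08 CPM (SD, n = 17) in ACSA2-positive, 30.4 ± 11.9 (n = 10) in CaMKII positive, 1.01 ± 0.730 (n = 16) in double-positive and 0.254 ± 0.230 CPM (n = 15) in CD11b-positive cells. Kcnd3, an A-type voltage-gated channel, had 15.2 ± 5.07, 17.2 ± 5.48, 0.921 ± 0.861 and 0.770 ± 0.621 CPM in the same order. In both genes every ACSA2-positive library lay above every CD11b-positive one.

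Kcnb2, a delayed rectifier, Kcnk5, a two-pore-domain channel, and Kcne4, an auxiliary subunit, were each highest in the CaMKII positive sham library of mouse 8, at 50.9, 29.1 and 26.7 CPM. The next highest CaMKII positive libraries had 11.6, 5.26 and 10.3 CPM. The same library held the most oligodendrocyte markers, and their part in these values was not tested. Kcnk16, Kcnk18 and Kcnmb3 had a count of 0 in all 58 libraries.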
